A study of Mus musculus with 35 samples.

Results

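The genes of iron storage, iron export and heme breakdown were followed through 35 RNA sequencing libraries of mouse bone marrow-derived macrophages (BMDMs, macrophages grown from marrow cells in L929 conditioned medium). The 9 genes, chosen by symbol, were Fth1, Ftl1, Slc40a1, Tfrc, Slc11a1, Slc11a2, Hmox1, Blvrb and Ncoa4, out of 47069 gene identifiers in each file. Each symbol matched 1 identifier, and all 9 were among the 11354 genes with a mean of at least 1 FPKM (fragments mapped to a gene, scaled to its length and to the depth of the library) that were tested.

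All cells were C57BL/6 and carried one of 2 genotype labels, wild type (WT) or AMPKa1-/-, the latter named for the gene Prkaa1, which encodes a catalytic subunit of the energy sensor AMPK. Cells of each genotype were exposed for 24 h to vehicle (DMSO), to 100 nM of the glucocorticoid dexamethasone (Dex), to 100 ng/ml of lipopolysaccharide (LPS, a bacterial cell wall component), to LPS and Dex together, to 1 µg/ml of DAMPs (damage-associated molecular patterns, whose preparation is not given in the sources used here), or to DAMPs and Dex together. Every one of the 12 groups had 3 libraries except WT with LPS, which had replicates 2 and 3 (replicate 1 was not analysed here), and per the study's methods a replicate is a culture from an individual mouse. The libraries held an estimated 15837203 to 31955298 fragments each.

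The targeted gene was not lower in the libraries labelled AMPKa1-/-. In vehicle, Prkaa1 (AMPK alpha 1) was at 15.9, 11.8 and 15.3 FPKM in WT and at 14.8, 16.5 and 15.4 FPKM in the libraries labelled AMPKa1-/-, a log2 difference of 0.12 (limma adjusted p = 1). Over the 6 treatments the genotype difference of Prkaa1 ran from -0.29 to 0.33 on the log2 scale, with limma adjusted p from 0.35 to 1. The other catalytic subunit gene, Prkaa2, stayed at or below 0.13 FPKM. Which stretch of the gene the allele removes is not given in the sources used here, so a value over the whole gene does not settle the genotype. The labels did separate libraries at other genes, with 49 of 11354 tested genes called in vehicle and a smallest adjusted p of 1.5e-20. Every genotype direction below rests on the label alone. Cells so labelled are called KO-labelled from here on.

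Library similarity was looked at before any comparison. The Pearson correlation of log2(FPKM + 1) between replicates of a group was 0.967 to 0.993, and 14 of the 35 libraries were closest to a library of another group. For 8 of these 14 the closest library had another treatment, as for WT Dex replicate 3 and WT DAMPs + Dex replicate 3 (0.993) or WT vehicle replicate 2 and WT DAMPs replicate 2 (0.991), and for 6 it had the same treatment and the other genotype label. No library with LPS was closest to one without it. No library matched another in all values.

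A macrophage takes in iron from transferrin through the transferrin receptor (Tfrc) and recovers heme iron from old red cells that it digests. Heme oxygenase 1 (Hmox1) opens the heme ring and frees the iron, and biliverdin reductase B (Blvrb) acts on breakdown products of heme. Working forms of the transporters Slc11a1 (NRAMP1) and Slc11a2 (DMT1) move iron out of phagosomes and endosomes into the cytosol. Transporter activity was not measured here. The Slc11a1 values below therefore describe its message and do not show that these cells held a working NRAMP1 protein. Iron that is not used is stored in ferritin, a shell built from heavy (Fth1) and light (Ftl1) chains, and Ncoa4 carries ferritin to the lysosome when the iron is needed again. Ferroportin (Slc40a1) is the exporter that returns iron to the blood. Much of this traffic is set after transcription: iron regulatory proteins bind a stem-loop, the iron responsive element (IRE), in the untranslated regions (UTRs) of several of these messages, holding back translation from a 5′ UTR or protecting the message in a 3′ UTR.

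Because these 9 messages differ in that element, the UTRs of the annotated coding transcripts were read for its shape. The pattern was a C, 5 bases, the loop CAGTGN, and 5 bases of which at least 4 pair with the 5 before the loop, G to T pairs allowed, on the transcribed strand only. It was found in 638 of 10454 genes with a UTR (6.10%) and in 5 of the 9 members, and a match is a description of the letters, not proof of a working element. The sequences below are from GRCm38 with GENCODE release M21, in transcript orientation 5′ to 3′, with the 6 loop bases in capitals. The ferritin chains and ferroportin held a match in the 5′ UTR.
Fth1, chr19:9982732-9982761, plus strand: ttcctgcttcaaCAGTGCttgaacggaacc
Ftl1, chr7:45459778-45459807, minus strand: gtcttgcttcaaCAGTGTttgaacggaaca
Slc40a1, chr1:45925464-45925493, minus strand: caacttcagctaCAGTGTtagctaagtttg
The transferrin receptor held 4 matches in its 3′ UTR.
Tfrc, chr16:32631219-32631248, plus strand: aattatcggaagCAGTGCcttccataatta
Tfrc, chr16:32631598-32631627, plus strand: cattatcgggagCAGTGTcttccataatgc
Tfrc, chr16:32631663-32631692, plus strand: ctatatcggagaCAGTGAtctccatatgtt
Tfrc, chr16:32631710-32631739, plus strand: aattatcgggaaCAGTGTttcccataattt
The DMT1 gene held 1 match in its 3′ UTR, with 4 of 5 stem bases paired.
Slc11a2, chr15:100395152-100395181, minus strand: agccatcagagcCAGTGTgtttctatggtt
In Slc11a1, Hmox1, Blvrb and Ncoa4 these letters were not found in the annotated UTRs. The transcript levels below do not read translation, so whether an element was occupied in these cells was not measured.

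By level, the ferritin chains stood far above the other 7 genes. Averaged over all 35 libraries, FPKM, which is scaled per length, was 21013 for Fth1 and 13422 for Ftl1, 1157 for Hmox1, 644 for Slc11a1 and 526 for Blvrb. The remaining means were 103 FPKM for Slc40a1, 69.3 for Slc11a2, 49.7 for Ncoa4 and 35.7 for Tfrc. Together the 9 genes took 3.40% to 6.65% of all FPKM in a library.

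**Figure D1:**
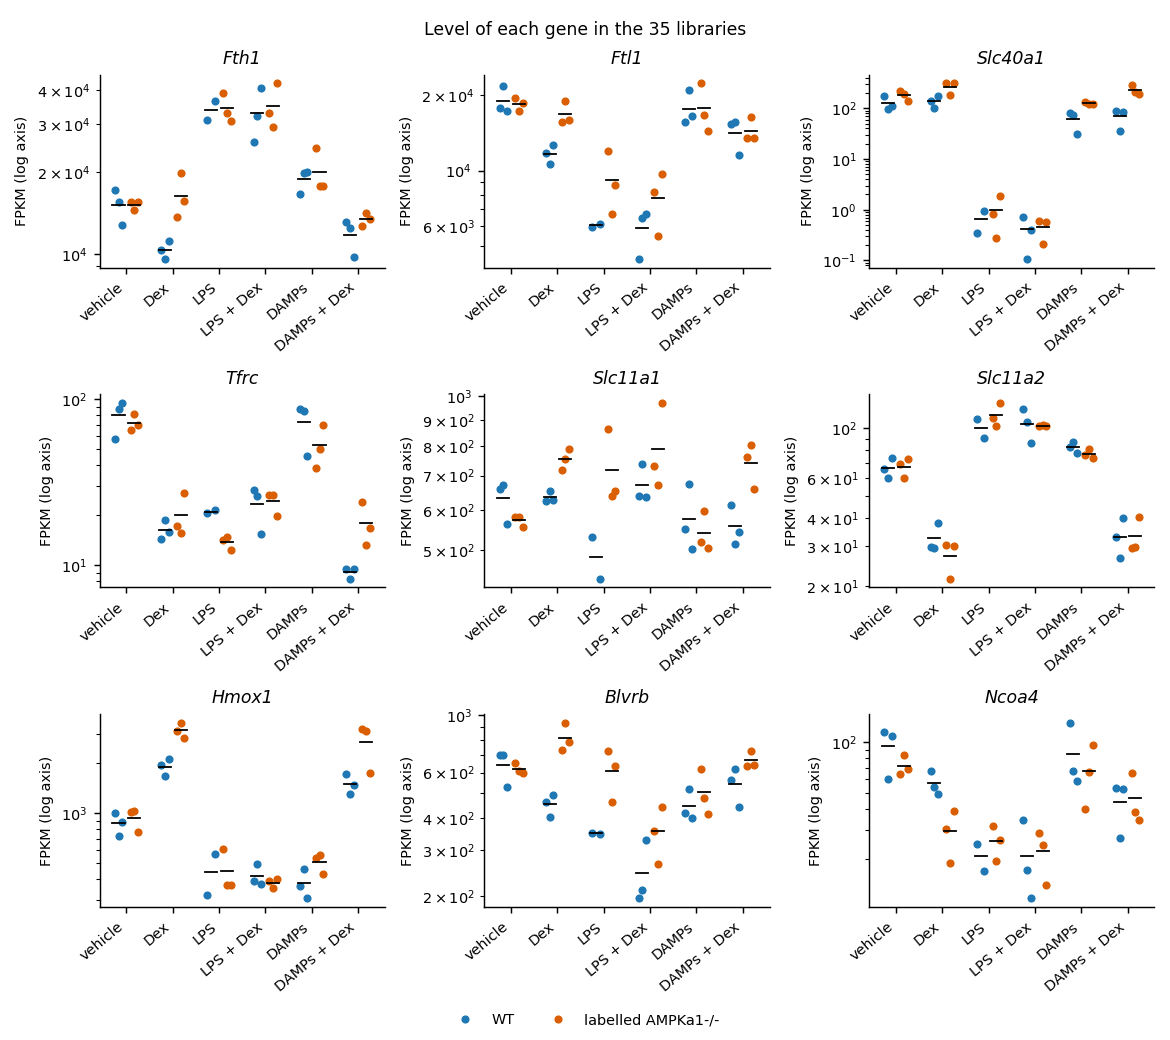
Level of each of the 9 genes in FPKM (vertical axis, log scale) in every library, by treatment and genotype label, on an axis of its own for each gene, with each point a library and each bar the group mean. Slc40a1 sat below 2 FPKM in all LPS-containing libraries, Hmox1 was highest in the libraries with Dex and no LPS, and Slc11a1 ran from 440.0 to 970.1 FPKM over all libraries.

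Tests used limma on log2(FPKM + 1) in 1 fit of all 35 libraries. Benjamini-Hochberg adjustment ran over the 11354 genes, with a threshold of 0.05. Every adjusted p below is from that fit unless a left-out library or another setting is named beside it. Differences are on the log2(FPKM + 1) scale, given with their standard error, and understate the change of genes near 0 FPKM. In bulk RNA, fewer cells of a type and less RNA per cell cannot be told apart. LPS changed all 9 members in WT (2 higher, 7 lower), where 55.7% of all tested genes were called (19.9% higher, 35.8% lower). In KO-labelled cells it changed 8 members (3 higher, 5 lower), where 64.3% of all genes were called (20.2% higher, 44.1% lower). Dex alone changed 5 members in WT (1 higher, 4 lower), where 30.9% of all genes were called (15.9% higher, 14.9% lower), and 5 in KO-labelled cells (2 higher, 3 lower), where 27.9% were called (11.9% higher, 16% lower). Dex on top of LPS changed 1 member in WT, upward, where 34.1% of all genes were called (16.6% higher, 17.5% lower), and 2 in KO-labelled cells (1 higher, 1 lower), where 37.7% were called (19.3% higher, 18.4% lower). DAMPs changed 1 member, Hmox1, downward in each label, against 2.01% of all genes called in WT (1.22% higher, 0.793% lower) and 4.13% in KO-labelled cells (1.89% higher, 2.24% lower). These 2 shares rest on 228 and 469 genes and moved with single libraries: in WT 26 genes were called without DAMPs replicate 3, 81 and 114 without vehicle replicate 3 or 1 and 372 without DAMPs replicate 2, and in KO-labelled cells 267 and 272 without vehicle replicate 2 or 3 and 269 and 311 without DAMPs replicate 3 or 1. Dex on top of DAMPs changed 4 members in WT (1 higher, 3 lower), where 24.3% of all genes were called (11.7% higher, 12.6% lower), and 5 in KO-labelled cells (2 higher, 3 lower), where 25.3% were called (13.1% higher, 12.2% lower). The counts in LPS and Dex were thus read against backgrounds in which a large share of the transcriptome was called.

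The median member difference was -1.01 for LPS in WT, beside -0.19 over all tested genes, and -1.05 beside -0.30 in KO-labelled cells. For LPS + Dex against LPS the member median was -0.06 in WT and -0.20 in KO-labelled cells, beside all-gene medians of -0.03 and 0.01. Scaling every library to a common median raised the all-gene median of LPS against vehicle by 0.15 in WT and 0.28 in KO-labelled cells. That scaling changed the share of called genes that were higher from 35.7% to 46.3% in WT and from 31.4% to 49.0% in KO-labelled cells.

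**Figure D2:**
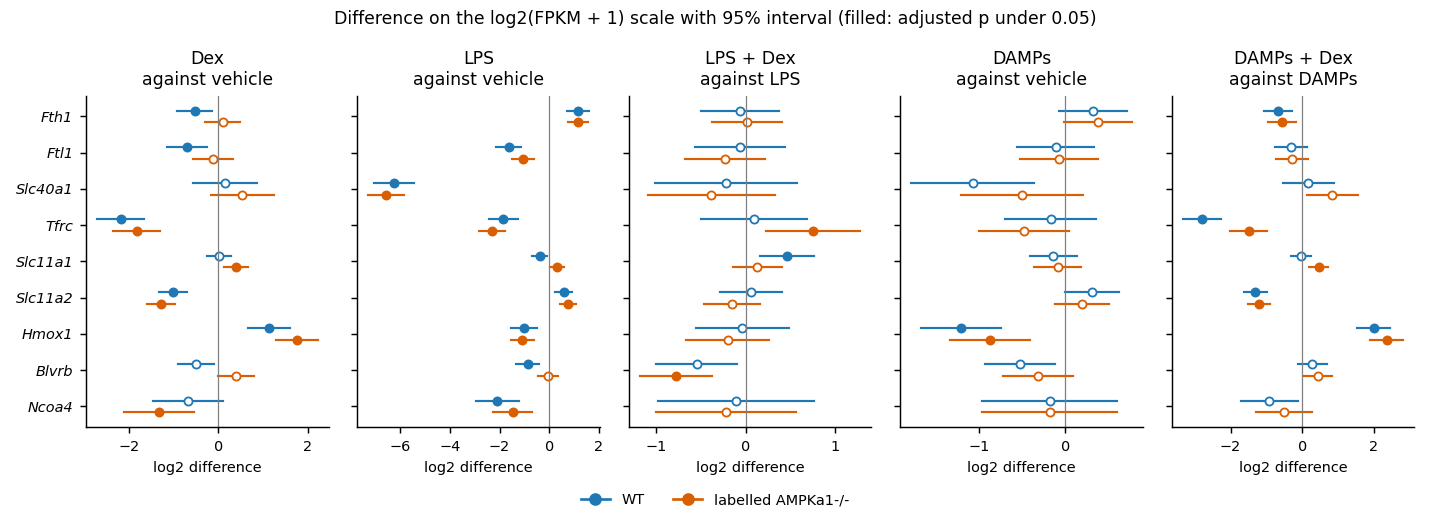
Log2 difference of each gene (horizontal axis, log2(FPKM + 1) scale) with its 95% interval in 5 comparisons, for both genotype labels, with filled points marking a limma adjusted p below 0.05. Slc40a1 lies near -6.25 and -6.57 for LPS against vehicle, and Tfrc, Slc11a2 and Hmox1 are apart from 0 in both comparisons that add Dex without LPS.

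Storage was led by an opposite movement of the ferritin chains under LPS. Fth1 (ENSMUSG00000024661 in the files, chr19:9980598-9985098 on the plus strand) encodes the chain that oxidizes iron for storage. In WT it was at 17180.2, 15473 and 12738 FPKM with vehicle and at 30964 and 36386 FPKM with LPS, and in KO-labelled cells at 15459, 14550.2 and 15522 FPKM with vehicle and at 39058, 32782 and 30649 FPKM with LPS. Both LPS groups lay wholly above their vehicle groups, by 2.23-fold and 2.25-fold of the group means. The log2 differences were 1.16 ± 0.21 (SE, adjusted p = 4.1e-05) and 1.16 (adjusted p = 6.7e-06). With LPS and Dex together Fth1 was at 25707, 31945 and 40660.1 FPKM in WT, a range that covered the LPS group, with a difference of -0.06 (95% interval -0.50 to 0.38).

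Ftl1 (chr7:45457944-45459884, minus strand), the chain that helps iron to mineralize inside the shell, fell with LPS. Its levels were 17819, 21776 and 17316 FPKM in WT with vehicle against 5970.0 and 6144 FPKM with LPS. The KO-labelled libraries gave 19396, 17238 and 18499 FPKM against 11927, 6716 and 8766 FPKM. No LPS library reached a vehicle library, and the group means were 3.13-fold and 2.01-fold lower. The log2 differences were -1.64 ± 0.24 (adjusted p = 1.9e-06) and -1.05 (adjusted p = 0.00015). The gene overlaps Gm22133 on its strand and Gm10252 on the other, and both ferritin genes have copies elsewhere in the genome (at least 80% identical over at least 60% of the coding sequence), so that some reads may have been assigned among them. Copies listed in the files summed to at most 1.36 FPKM for Fth1 and 6.42 FPKM for Ftl1.

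As a ratio within each library, Fth1 over Ftl1 was 0.964, 0.711 and 0.736 in WT vehicle and 5.19 and 5.92 in WT LPS. In KO-labelled cells it was 0.797, 0.844 and 0.839 with vehicle and 3.27, 4.88 and 3.496 with LPS. All 11 libraries with LPS, with or without Dex, had a ratio of at least 3.27, and the other 24 had at most 1.23. With DAMPs the ratio was 1.07, 0.950 and 1.22 in WT, and with Dex 0.887, 0.906 and 0.887.

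**Figure D3:**
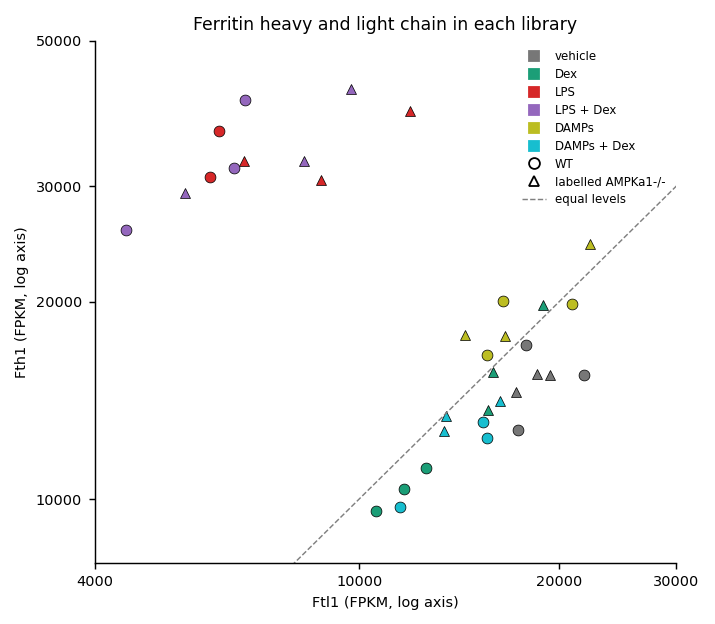
Fth1 (vertical axis) against Ftl1 (horizontal axis) in FPKM on log scales, each point a library, with the dashed line marking equal levels. The 11 LPS-containing libraries lie apart from the rest, high for Fth1 and low for Ftl1.

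Without LPS, Dex lowered both ferritin genes in WT by the test, by less than LPS moved them. Fth1 in WT was at 10375, 9599 and 11168 FPKM with Dex, all under the vehicle libraries, a difference of -0.54 ± 0.19 (adjusted p = 0.035), and Ftl1 was at 11699, 10594 and 12593 FPKM, a difference of -0.70 ± 0.22 (adjusted p = 0.016). Neither passed the test in KO-labelled cells, where Fth1 was at 13658, 19732 and 15633 FPKM with Dex, and the difference of the Fth1 response between the labels was not called (0.63 ± 0.27, adjusted p = 0.20). The Fth1 call in WT was lost when any 1 of WT Dex replicates 1 or 2 or WT vehicle replicates 1 or 2 was left out (adjusted p from 0.075 to 0.13), and the Ftl1 call was lost without WT Dex replicate 2 (0.067) or WT vehicle replicate 2 (0.081). Without a filter neither was called (0.28 for Fth1 and 0.11 for Ftl1), and Fth1 was not called on a common median (0.074) or with only WT libraries in the fit (0.075). On top of DAMPs, Dex lowered Fth1 from 16607, 19832 and 20010.1 FPKM to 13117, 12403 and 9712 FPKM in WT (-0.69, adjusted p = 0.0084) and from 24514, 17742 and 17779.8 FPKM to 12703, 14111 and 13382 FPKM in KO-labelled cells (-0.56, adjusted p = 0.031). The groups did not overlap in either label. The WT call was lost without DAMPs + Dex replicate 3 (adjusted p = 0.058) and the KO-labelled call without DAMPs replicate 1 (-0.41, adjusted p = 0.19), DAMPs + Dex replicate 1 (0.096) or DAMPs + Dex replicate 3 (0.072). Both Fth1 calls were lost when libraries were centred on one median (0.058 and 0.093) and without a filter (0.18 and 0.31).

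Ncoa4 (chr14:32159865-32179855, plus strand), the receptor for ferritin breakdown, fell with LPS. In WT it went from 114, 60.2 and 109 FPKM to 24.8 and 17.1 FPKM, and in KO-labelled cells from 64.4, 83.5 and 69.5 FPKM to 31.5, 19.5 and 26.0 FPKM, with no overlap of the groups. The group means were 4.52-fold and 2.82-fold lower, and the log2 differences were -2.09 ± 0.43 (adjusted p = 0.00014) and -1.48 (adjusted p = 0.0014). With Dex alone it was at 67.1, 54.2 and 48.9 FPKM in WT, which did not pass the test, and at 30.2, 19.0 and 38.8 FPKM in KO-labelled cells, a difference of -1.32 ± 0.38 (adjusted p = 0.0098) that was lost without KO-labelled Dex replicate 2 (-1.05, adjusted p = 0.075). Its replicates lay far apart, from 59.0 to 130.4 FPKM in WT with DAMPs.

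Export was the member function with the largest change. Slc40a1 (ferroportin, chr1:45908068-45926523, minus strand) was at 172, 95.9 and 109.9 FPKM in WT with vehicle and at 0.342 and 0.945 FPKM with LPS. In KO-labelled cells it was at 216, 188 and 138 FPKM with vehicle and at 0.843, 0.274 and 1.86 FPKM with LPS. Vehicle means were 195.7-fold above LPS in WT and 182-fold above it in KO-labelled cells. These ratios depend on the highest library of each LPS group and were 368-fold without WT LPS replicate 3 and 324-fold without KO-labelled LPS replicate 3. The fitted differences, which the pseudocount of 1 FPKM compresses at this level, were -6.25 ± 0.39 (adjusted p = 1.2e-13) and -6.57 ± 0.35 (adjusted p = 2.6e-15). Even the lowest LPS-containing library held an estimated 17.9 fragments of the gene, so the gene was still detected there.

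Dex did not bring ferroportin back under LPS. With LPS and Dex together Slc40a1 was at 0.728, 0.108 and 0.404 FPKM in WT and at 0.587, 0.216 and 0.574 FPKM in KO-labelled cells, and the 11 LPS-containing libraries stayed at or below 1.86 FPKM. The lowest of the other 24 was at 31.8 FPKM. The difference of LPS + Dex from LPS in WT was -0.22 and did not pass the test. DAMPs gave 79.8, 73.7 and 31.8 FPKM in WT, all under the vehicle libraries, a difference of -1.08 that did not pass it either (adjusted p = 0.13).

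The transcript of the transferrin receptor fell with Dex and with LPS. Tfrc (chr16:32608920-32632794, plus strand) was at 57.7, 87.4 and 94.5 FPKM in WT with vehicle and at 14.4, 18.8 and 15.9 FPKM with Dex. In KO-labelled cells the values were 65.0, 81.8 and 69.8 FPKM against 17.3, 15.7 and 27.1 FPKM. Vehicle means were 4.88-fold and 3.60-fold higher, and no Dex library came near a vehicle library. The log2 differences were -2.20 ± 0.26 (adjusted p = 1.9e-07) and -1.83 (adjusted p = 3.4e-06).

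Dex also lowered Tfrc on top of DAMPs. It was at 87.5, 84.2 and 45.3 FPKM with DAMPs in WT and at 9.496, 8.32 and 9.48 FPKM with DAMPs and Dex, a 7.95-fold difference of the means (-2.80, adjusted p = 2.2e-09). In KO-labelled cells it was at 38.4, 49.96 and 69.8 FPKM and at 24.1, 13.2 and 16.7 FPKM, a 2.93-fold difference (-1.50, adjusted p = 5.6e-05). LPS took Tfrc to 20.7 and 21.4 FPKM in WT (-1.84 ± 0.29, adjusted p = 3.8e-06) and to 14.2, 14.8 and 12.4 FPKM in KO-labelled cells (-2.30, adjusted p = 1e-08). On that low level Dex did not lower it further. With both agents it was at 28.6, 26.1 and 15.3 FPKM in WT, 0.09 from LPS (95% interval -0.50 to 0.68), and at 26.5, 26.5 and 19.8 FPKM in KO-labelled cells, 0.76 ± 0.26 above LPS (adjusted p = 0.020). The latter call was lost without LPS + Dex replicate 1 or 2 or LPS replicate 3 of the KO-labelled cells (adjusted p from 0.070 to 0.073).

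Slc11a2 (DMT1, chr15:100387898-100425072, minus strand) moved in opposite directions with LPS and with Dex. In WT it was at 65.8, 60.3 and 73.8 FPKM with vehicle, 30.0, 29.5 and 38.1 FPKM with Dex and 109.6 and 90.2 FPKM with LPS. In KO-labelled cells it was at 69.1, 60.3 and 73.1 FPKM, 30.4, 21.6 and 30.1 FPKM, and 111, 102 and 129 FPKM. Dex lowered it by 2.05-fold and 2.47-fold of the means, with log2 differences of -1.02 ± 0.15 (adjusted p = 9.4e-06) and -1.28 (adjusted p = 2.5e-07). LPS raised it by 1.499-fold and 1.69-fold, with differences of 0.58 ± 0.17 (adjusted p = 0.0054) and 0.75 (adjusted p = 0.00012), the former lost without WT LPS replicate 2 (0.44, adjusted p = 0.10). The gene overlaps Gm5475 on the other strand, which was listed at no more than 0.155 FPKM.

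Ordered by group mean, Slc11a2 fell into 4 blocks: 99.9 to 114 FPKM in the 4 LPS-containing groups, 77.2 to 82.5 FPKM with DAMPs, 66.6 to 67.5 FPKM with vehicle, and 27.4 to 33.3 FPKM with Dex alone or with DAMPs and Dex. No library of a block reached into the next except WT LPS + Dex replicate 3 at 86.1 FPKM, which lay under WT DAMPs replicate 2 at 87.3 FPKM. The Dex block stood under DAMPs as it did under vehicle, with 33.0, 26.6 and 40.1 FPKM in WT with DAMPs and Dex (-1.31, adjusted p = 1.7e-07) and 29.6, 29.7 and 40.6 FPKM in KO-labelled cells (-1.20, adjusted p = 6.6e-07). With LPS present Dex left it at 122, 106 and 86.1 FPKM in WT, a difference of 0.06 (95% interval -0.29 to 0.41). The DAMPs block lay above vehicle without passing the test.

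The message of Slc11a1 (NRAMP1, chr1:74375195-74386062, plus strand), the gene of the phagosomal transporter, moved little. It ran from 440.0 FPKM in a WT LPS library to 970.1 FPKM in a KO-labelled LPS + Dex library, and neighbouring groups overlapped all along the order of means. In WT it was at 658, 672 and 564 FPKM with vehicle and 531 and 440.0 FPKM with LPS, and in KO-labelled cells at 581, 582 and 554 FPKM and at 863, 639 and 654 FPKM. The WT libraries thus fell (-0.38 ± 0.15, adjusted p = 0.032) and the KO-labelled libraries rose (0.32 ± 0.13, adjusted p = 0.040), both without overlap. The WT call was lost without LPS replicate 3 (-0.25, adjusted p = 0.30) or vehicle replicate 1 (0.082) or 2 (0.092), on a common median (-0.23, adjusted p = 0.30) and without a filter (0.056). The KO-labelled call was lost without LPS replicate 1 (0.18, adjusted p = 0.28) or any 1 vehicle library (adjusted p from 0.066 to 0.099), and without a filter (0.075) or with only KO-labelled libraries in the fit (0.059). Dex on top of LPS gave 637, 736 and 637 FPKM in WT, 0.47 ± 0.15 above LPS (adjusted p = 0.015), which was lost without LPS replicate 3 (0.33, adjusted p = 0.21) or LPS + Dex replicate 2 (0.069). In KO-labelled cells Dex gave 719, 755 and 791 FPKM (0.40 ± 0.13, adjusted p = 0.025) and, on DAMPs, 759, 803 and 659 FPKM against 518, 597 and 505 FPKM (0.45, adjusted p = 0.012). The former was lost without any 1 KO-labelled vehicle library or without Dex replicate 2 or 3 (adjusted p from 0.050 to 0.080), and the latter without DAMPs replicate 3 (0.050) or DAMPs + Dex replicate 2 (0.059) or on a common median (0.075).

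Heme breakdown was led by Hmox1 (chr8:75093621-75100589, plus strand), whose enzyme frees iron from heme. In WT it was at 1000.2, 729.6 and 886 FPKM with vehicle and at 1942, 1675 and 2104 FPKM with Dex, and in KO-labelled cells at 1014, 1026 and 772 FPKM and at 3137, 3487 and 2839 FPKM. Every Dex library lay above every vehicle library, by 2.19-fold and 3.36-fold of the means. The log2 differences were 1.13 ± 0.23 (adjusted p = 0.00035) and 1.76 (adjusted p = 8.8e-07).

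LPS and DAMPs both lowered Hmox1. With LPS it was at 322 and 569.7 FPKM in WT (-1.01 ± 0.25, adjusted p = 0.0012) and at 608, 372 and 369 FPKM in KO-labelled cells (-1.09, adjusted p = 0.00015), the WT call being lost without LPS replicate 2 (-0.60, adjusted p = 0.10). With DAMPs it was at 365, 465 and 308 FPKM in WT, 2.30-fold under vehicle (-1.21 ± 0.23, adjusted p = 0.0042), and at 539, 562 and 429.7 FPKM in KO-labelled cells, 1.84-fold under it (-0.87, adjusted p = 0.021). Hmox1 was the sole member called for DAMPs in either label. The WT call was lost without DAMPs replicate 3 (-1.07, adjusted p = 0.068). The KO-labelled call was lost without DAMPs replicate 1 (0.050) or 3 (0.13) or vehicle replicate 1 (0.080) or 2 (0.11), on a common median (0.075) and without a filter (0.052).

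Dex raised Hmox1 in the presence of DAMPs, to 1727, 1302 and 1471 FPKM in WT (3.96-fold, 1.99 on the log2 scale, adjusted p = 9.9e-08) and to 3199.7, 3136 and 1742 FPKM in KO-labelled cells (5.28-fold, 2.35, adjusted p = 5.2e-09). With LPS present it stayed low, at 389.6, 495 and 378 FPKM in WT and at 389, 354 and 401 FPKM in KO-labelled cells. The differences from LPS were -0.04 (95% interval -0.56 to 0.48, adjusted p = 0.94) and -0.20 (-0.66 to 0.26, adjusted p = 0.54). By group mean, the 4 groups with Dex and no LPS held 1500 to 3155 FPKM, the vehicle groups 872 to 938 FPKM and the remaining 6 groups 379 to 510 FPKM.

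Blvrb (chr7:27447978-27466144, plus strand) passed the test for LPS in WT, falling from 701, 701 and 529.6 FPKM to 351 and 349 FPKM (-0.87 ± 0.22, adjusted p = 0.0015). In KO-labelled cells it was at 654, 607 and 598 FPKM with vehicle and at 727, 462 and 637 FPKM with LPS (-0.05, adjusted p = 0.84), and the difference between the labels in this response was not called (0.82 ± 0.30, adjusted p = 0.95). Adding Dex to LPS gave 196, 211 and 330.3 FPKM in WT (-0.55, adjusted p = 0.055; without LPS + Dex replicate 3 -0.78, adjusted p = 0.0065) and 358, 265 and 444 FPKM in KO-labelled cells (-0.78 ± 0.20, adjusted p = 0.0023). With Dex alone it was at 463, 405 and 492 FPKM in WT (-0.50 ± 0.20, adjusted p = 0.056; without vehicle replicate 3 -0.63, adjusted p = 0.033) and at 735, 935 and 792 FPKM in KO-labelled cells (0.40, adjusted p = 0.14).

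Whether Dex acted differently with LPS than without it was tested as a term of the fit. In WT 3 members differed, where 32.0% of all genes did. The Dex difference was higher with LPS by 2.29 ± 0.39 for Tfrc (adjusted p = 4.5e-05) and by 1.08 ± 0.23 for Slc11a2 (adjusted p = 0.00067), and lower with LPS for Hmox1 (-1.17 ± 0.34, adjusted p = 0.0095). In KO-labelled cells 4 members differed, where 28.4% of all genes did: Tfrc by 2.59 (adjusted p = 3e-06), Slc11a2 by 1.14 (adjusted p = 0.00018), Hmox1 by -1.96 ± 0.32 (adjusted p = 2.7e-05) and Blvrb by -1.18 ± 0.28 (adjusted p = 0.0018). The Hmox1 value in WT was lost without WT LPS replicate 3 (-0.76, adjusted p = 0.12). Under LPS itself none of Tfrc, Slc11a2 and Hmox1 passed the test for Dex, apart from Tfrc in KO-labelled cells, which rose. For DAMPs the same term was not fitted, and the Dex differences without and with DAMPs stand side by side above.

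**Figure D4:**
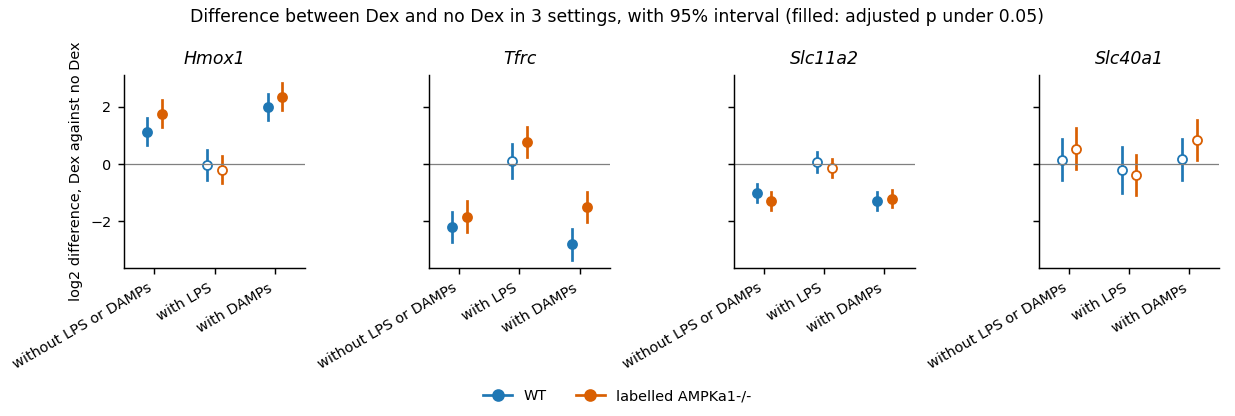
Log2 difference made by Dex (vertical axis, log2(FPKM + 1) scale, with 95% intervals) for Hmox1, Tfrc, Slc11a2 and Slc40a1 without LPS or DAMPs, with LPS and with DAMPs, for both genotype labels. Hmox1 is near 0 with LPS, at -0.04 in WT, against 1.13 without LPS and 1.99 with DAMPs.

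Between the genotype labels at the same treatment, members differed mainly in Dex. No member was called in vehicle (0.432% of all genes), LPS (0.766%), LPS + Dex (0.669%) or DAMPs (0.731%). The 49, 87, 76 and 83 genes behind these shares ran from 28 to 58, 9 to 130, 36 to 110 and 25 to 55 when libraries were left out in turn. At an unadjusted p under 0.05 in limma there were 0, 3, 1 and 1 members in these 4 treatments, beside 700, 1300, 921 and 860 genes. In Dex 4 members were higher in KO-labelled libraries, where 26.5% of all genes were called and 11% were called higher. Fth1 differed by 0.64 (adjusted p = 0.021), Slc40a1 by 0.93 ± 0.35 (138, 103 and 175 FPKM in WT against 310.5, 179 and 311 FPKM, adjusted p = 0.049), Hmox1 by 0.73 (adjusted p = 0.024) and Blvrb by 0.85 ± 0.20 (1.81-fold, adjusted p = 0.0069). For all 4 no KO-labelled library with Dex lay below the highest WT library.

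These genotype calls in Dex rested on single libraries. Without KO-labelled Dex replicate 2 the whole table fell from 3008 called genes to 308 and none of the 4 members was called, and without WT Dex replicate 2 it fell to 304 with none called. Without WT Dex replicate 1 it was 1662 genes. Fth1 was also not called without a filter (0.17) or with only the 2 groups in the fit (0.058), and Slc40a1 without a filter (0.10) or with a pseudocount of 0.1 FPKM (0.16). Centring the libraries raised the all-gene median of this comparison by 0.16 and the share of its calls that were higher from 41.4% to 59.1%. Summed markers of other cells also differed in Dex: stromal markers (6 genes) were at 11.9 to 24.7 FPKM in WT and 2.99 to 4.52 FPKM in KO-labelled libraries, and neutrophil markers (12 genes) at 19.9 to 37.2 FPKM and 78.1 to 116 FPKM. Macrophage markers (11 genes) differed too, at 24652.9 to 30016.8 FPKM in WT and 38140.9 to 47734.2 FPKM in KO-labelled libraries. The part of these markers in the genotype differences was not tested.

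In DAMPs + Dex, Slc40a1 was higher in the KO-labelled libraries, at 291, 206 and 189 FPKM against 88.5, 35.2 and 85.1 FPKM, a 3.28-fold difference of the means (1.79 ± 0.35, adjusted p = 0.0058), where 1.06% of all genes were called (0.555% higher, 0.502% lower). The groups did not overlap. The call was lost without KO-labelled replicate 1 (1.60, adjusted p = 0.051) or WT replicate 2 (1.36, adjusted p = 0.096), with a pseudocount of 0.1 FPKM (1.80, adjusted p = 0.10) and with only these 2 groups in the fit (1.79, adjusted p = 0.084). Hmox1 in the same treatment differed by 0.80 (adjusted p = 0.096), and by 1.09 (adjusted p = 0.013) without KO-labelled replicate 3. Summed stromal markers differed here too, at 9.42 to 18.5 FPKM in WT and 1.997 to 4.39 FPKM in KO-labelled libraries. Neutrophil markers were at 27.6 to 49.4 FPKM in WT and 73.4 to 133.7 FPKM in KO-labelled libraries. Macrophage markers overlapped, at 31681.6 to 41044.3 FPKM and 38351.7 to 40908.2 FPKM. The part of these markers in the Slc40a1 difference was not tested.

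Whether the response to a treatment itself differed between the labels was tested for 5 responses. limma called no member and no gene in any of them (0%). At an unadjusted p under 0.05 there were 3 members for Dex, 2 for LPS, 0 for Dex on LPS, 0 for DAMPs and 2 for Dex on DAMPs, beside 2441, 514, 311, 66 and 234 genes. The Hmox1 response to Dex, at 1.13 in WT and 1.76 in KO-labelled cells, differed by 0.62 ± 0.32 (adjusted p = 0.24). The Tfrc response to Dex on DAMPs differed by 1.31 ± 0.36 (unadjusted p = 0.0013 in limma, adjusted p = 1).

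The rest of the iron and heme pathway was counted from lists that hold no member, to be read beside the shares of all genes called in the same comparisons. These were 19.9% higher and 35.8% lower for LPS in WT (20.2% and 44.1% in KO-labelled cells), 16.6% and 17.5% for Dex on LPS (19.3% and 18.4%), 15.9% and 14.9% for Dex alone (11.9% and 16%) and 11.7% and 12.6% for Dex on DAMPs (13.1% and 12.2%). In iron uptake and transport inside the cell, 11 of 15 listed genes were tested. LPS raised 4 and lowered 7 of them in WT and raised 4 and lowered 6 in KO-labelled cells, and Dex on LPS raised 4 and lowered 1 in WT and raised 5 and lowered 2 in KO-labelled cells. The genes that rose with Dex on LPS included Hp, the plasma protein haptoglobin that binds free hemoglobin, with group means of 8.51 FPKM with vehicle, 97.5 FPKM with LPS and 14390.5 FPKM with LPS and Dex in WT (7.22 from LPS, adjusted p = 4.8e-12). Lcn2, which binds bacterial siderophores that carry iron, stood at 6.63, 1339 and 18711 FPKM (3.81, adjusted p = 1.2e-07). Cd163, the receptor for haptoglobin bound to hemoglobin, rose with Dex from 4.42 to 26.7 FPKM (2.36, adjusted p = 1.2e-06), fell with LPS to 0.124 FPKM (-2.24, adjusted p = 3.1e-06) and stood at 3.65 FPKM with both (1.94 above LPS, adjusted p = 5.3e-05). Slc25a37, mitoferrin 1, rose with LPS (1.47, adjusted p = 4.4e-06) and fell with Dex on it (-1.49, adjusted p = 8.1e-06).

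Of 8 iron oxidation and storage partners 5 were tested, and LPS raised 2 and lowered 2 in WT. Cp, the ferroxidase ceruloplasmin that works beside ferroportin, was at 12.8 FPKM with vehicle, 332 FPKM with LPS and 582 FPKM with LPS and Dex (4.58, adjusted p = 6.6e-14, and 0.81, adjusted p = 0.023). It thus rose in the same libraries in which Slc40a1 was below 2 FPKM. The iron chaperones Pcbp1 (-0.63, adjusted p = 9e-05) and Pcbp2 (-0.52, adjusted p = 0.0025) fell with LPS in WT, and Bola2 rose (0.77, adjusted p = 0.0084).

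Of 10 iron sensing and control genes 7 were tested. LPS raised 1 and lowered 4 of the 7 in each label, beside 35.8% of all genes lower in WT and 44.1% in KO-labelled cells. Dex alone raised 3 in WT and 2 in KO-labelled cells and lowered none. Fbxl5, the iron-sensing subunit that marks an iron regulatory protein for breakdown, rose with Dex (1.75, adjusted p = 1.9e-08) from 21.7 to 75.3 FPKM in WT, and also on LPS (1.60, adjusted p = 2.9e-07). In that WT comparison Tfrc, Slc11a2 and Hmox1 did not pass the test. Hfe, a partner of the transferrin receptor, fell with LPS from 62.4 to 5.99 FPKM (-3.19, adjusted p = 8.2e-13) and was at 25.2 FPKM with LPS and Dex (1.88, adjusted p = 7e-08). Hif1a, the oxygen-responsive transcription factor, rose with LPS (2.48, adjusted p = 1.6e-09) and was lower with Dex on it (-1.07, adjusted p = 0.0011), while its relative Epas1 fell with LPS (-1.61, adjusted p = 0.00048).

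Heme transport and breakdown partners moved one way under LPS. All 7 tested of 9 listed were lower in both labels, also after centring, where 35.8% of all genes were lower in WT and 44.1% in KO-labelled cells. Slc48a1, which carries heme out of the phagolysosome, went from 459 FPKM with vehicle to 219 FPKM with LPS and 140 FPKM with LPS and Dex in WT (-1.08, adjusted p = 2.8e-06, and -0.63, adjusted p = 0.0038). Por, the reductase that feeds electrons to heme oxygenase, fell by 1.71 on the log2 scale (adjusted p = 4.2e-09), Blvra, biliverdin reductase A, by 1.58 (adjusted p = 2.1e-09) and Abcg2, a porphyrin exporter, by 1.02 (adjusted p = 0.00094). Dex alone lowered 5 of the 7 in WT, where 14.9% of all genes were lower, and 2 in KO-labelled cells, where 16% were, and Dex on DAMPs lowered 5 in each, where 12.6% and 12.2% were, in the libraries in which Hmox1 rose. Heme synthesis (8 of 8 tested) had 3 genes lower with LPS in WT and none higher, among them Urod (-0.79, adjusted p = 7.6e-05), Fech, which inserts the iron (-0.79, adjusted p = 1.4e-05), and Ppox (-0.56, adjusted p = 0.016).

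The transcription factors of the heme and redox response, with Keap1, the partner that holds the factor NRF2 back, and the other genes of that response were counted as well. Of these 8 regulators, LPS raised 3 and lowered 3 in WT, and Dex on LPS lowered 3. Bach1, the heme-binding repressor of Hmox1, fell with LPS (-1.74, adjusted p = 1.8e-05), where Hmox1 also fell. Maff (3.84, adjusted p = 4.5e-13), Nr1h3 (1.80, adjusted p = 2.5e-12) and Keap1 (0.75, adjusted p = 4.7e-07) rose with LPS and were lower with Dex on it (-2.41, adjusted p = 1.4e-08, -1.13, adjusted p = 6.1e-08, and -0.96, adjusted p = 1.4e-08). Of 8 other targets of the redox factor NRF2, DAMPs lowered 5 and raised none in each label, in comparisons in which 0.793% of all genes were lower in WT and 2.24% in KO-labelled cells. These were Gclc, Gclm, Srxn1, Txnrd1 and Pgd, with Srxn1, which repairs oxidized peroxiredoxins, at -1.42 (adjusted p = 0.0039) in WT. On a common median 3 of the 8 were lower in KO-labelled cells. The list counts were not recomputed with single libraries left out. Over all genes, the calls for DAMPs then ran from 26 to 372 in WT and from 267 to 453 in KO-labelled cells. Dex alone lowered 5 of the 8 in WT, where 14.9% of all genes were lower, and 2 in KO-labelled cells, where 16% were. In WT Srxn1 was at -2.20 (adjusted p = 1.9e-07) and Txnrd1, thioredoxin reductase, at -1.02 (adjusted p = 0.0034). In WT LPS lowered 6, among them Gclm (-1.70, adjusted p = 1.9e-05), and raised 1, the cystine importer Slc7a11 (3.35, adjusted p = 1.1e-07).

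In iron-sulfur cluster assembly, where all 16 listed genes were tested, Dex on LPS raised 6 and lowered 1 in WT and raised 7 and lowered 2 in KO-labelled cells, beside 16.6% and 19.3% of all genes higher. Iscu, the scaffold protein, went from 107 to 241 FPKM in WT (1.16, adjusted p = 4.5e-06). Glrx5 (0.79, adjusted p = 0.00031), Isca1 (0.66, adjusted p = 0.00073) and Bola3 (0.62, adjusted p = 0.0052) rose with it. LPS alone raised 4 and lowered 3 in WT, and in KO-labelled cells raised 6 and lowered 4, or 10 and 2 after centring.

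**Figure D5:**
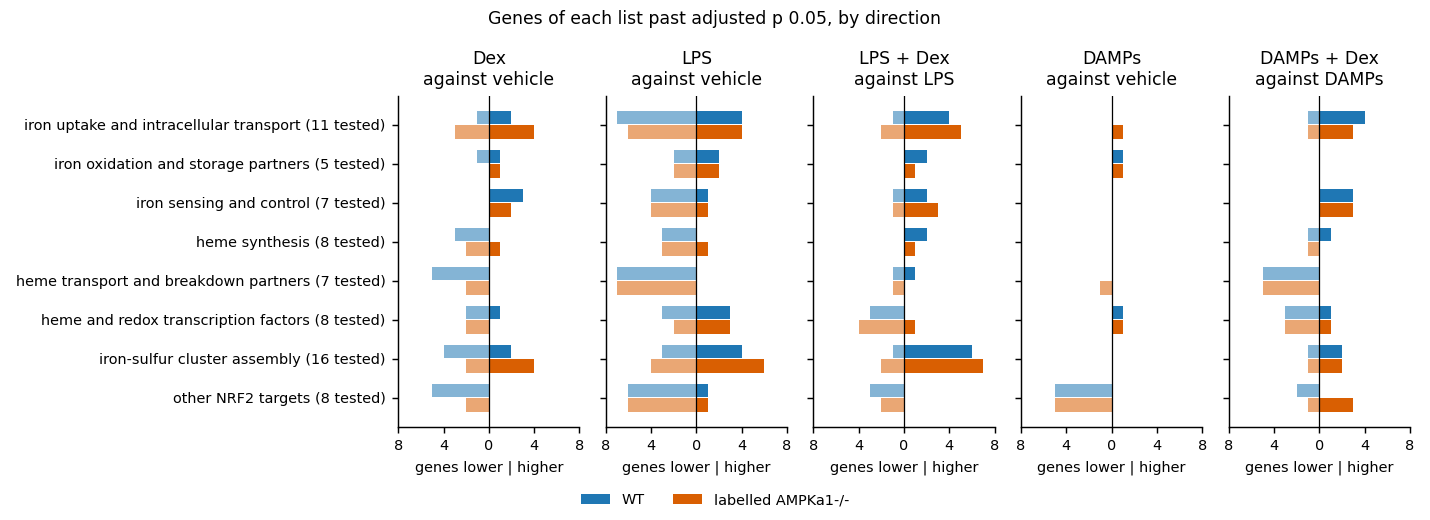
Number of listed genes called lower (left of 0) and higher (right of 0) by limma in 8 iron and heme lists for 5 comparisons and both genotype labels, where the list of transcription factors also holds Keap1. The bars for heme transport and breakdown partners under LPS reach 7 lower and 0 higher in each label.

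The genes whose 12 group means of log2(FPKM + 1) correlated best with each member are given as a description over 12 points that share libraries. Slc40a1 was most like Gab1 (Pearson r = 0.990) and Zfp282 (0.989), and Fth1 most like Tnfaip8 (0.986) and Emc2 (0.981). Ncoa4 was closest to Gm6768 (0.986) and Tecpr1 (0.973), Slc11a2 to Tgm2 (0.982) and Creb3l1 (0.973), and Ftl1 to Stard3nl (0.979) and AI413582 (0.976). For Hmox1 the closest were Gfra4 (0.962) and Zfp410 (0.960), for Tfrc Vma21 (0.943), for Blvrb Mpzl1 (0.925) and Sema4b (0.920), and for Slc11a1 2210408F21Rik (0.841) and Tnfrsf23 (0.816). Among the members, Hmox1 and Slc11a2 ran opposite to each other (r = -0.96), as did Fth1 and Slc40a1 (-0.90), while Ftl1 and Slc40a1 ran together (0.91).

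The labelled cell type was checked against markers. All 11 macrophage markers had a mean of at least 1 FPKM, led by Lyz2 at 10343.5 to 35906 FPKM, with Adgre1, Csf1r and Cd68 as defining genes. Because red cells and their precursors hold much iron and heme, erythroid markers were read too: all 9 found in the files, hemoglobin genes included, were below 1 FPKM in every library, with Alas2 the most abundant at up to 0.303 FPKM and a sum of at most 0.392 FPKM. Lymphoid and mast cell markers were low, led by Cd79a (at most 0.821 FPKM) and Cpa3 (at most 0.878 FPKM).

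Other markers moved with treatment. The 12 neutrophil markers summed to 6.58 to 41.9 FPKM in WT vehicle and to 512.6 to 1200.6 FPKM in WT LPS + Dex. S100a8 led them at up to 1147 FPKM, while the defining genes Ly6g, Elane and Mpo were at most 0.475 FPKM. The markers did not move together. Of the 6 tested, Dex on LPS in WT raised 1, S100a8 (5.28, limma adjusted p = 7.7e-09), and lowered 1, Camp (-1.62, adjusted p = 0.00031). The 4 dendritic markers summed to 38.6 to 111.6 FPKM in WT LPS, led by Ccr7 at up to 109.9 FPKM, and to at most 1.58 FPKM in WT LPS + Dex. Of these 4 only 1, Ccr7, had a mean of at least 1 FPKM. Stromal markers were led by Col1a2 at up to 11.9 FPKM. In LPS + Dex a single acute phase gene, Saa3, took 16.002% to 24.0% of all FPKM in WT, against 7.12% to 7.20% with LPS. The part of any of these in the members' differences was not tested.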

How the data were processed

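Total RNA of 35 BMDM cultures was sequenced, and the authors deposited 1 table of FPKM values per library, with 47069 Ensembl identifiers of which 46488 had a gene symbol. The submitters' processing notes name Bowtie2 2.2.3, TopHat2 2.0.12, HTSeq 0.6.1 and DESeq2 and the builds GRCm38 and mm10. Their order, the annotation release and the strand setting are not given in the sources used, so reads of overlapping genes cannot be told apart. Every value column was used. Depth was estimated from the steps between low FPKM values. At the estimated depth 55.3% to 63.9% of the values of genes under 10 fragments were whole within 0.001, which is not nearly all, so no count test was run. One fragment on 1 kb was worth 0.0313 to 0.0631 FPKM, which limits the precision of low genes.

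Values were analysed as log2(FPKM + 1) for genes with a mean of at least 1 FPKM in limma 3.58.1 (R 4.3.3), with 12 group means, empirical Bayes moderation with a trend, 2-sided tests and Benjamini-Hochberg adjustment within each of 23 comparisons at 0.05. WT LPS, with 2 libraries, shared the spread of all groups. Tables and figures were made with Python 3.11.15, numpy 2.4.6, pandas 2.3.3 and matplotlib 3.10.9, and the test was tried on simulated data. Groups came from the sample titles. The members' results and the counts over all genes were recomputed with 0.1 as the pseudocount, without a filter and with genes of at least 5 FPKM on average. They were also recomputed with libraries centred on one median, only the groups or the genotype compared, the replicate number as a block, and each library left out. Counts of the pathway lists were recomputed with centred libraries only.

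The members and lists were chosen with earlier results of these data known. The text names all 9 members, Prkaa1 and Prkaa2, from each pathway list up to 4 genes (those called for LPS + Dex against LPS in WT with the largest absolute difference, then those for LPS against vehicle in WT), for each member the 2 genes with the most similar group means, and for each marker list its most abundant and its defining genes. Gclc and Pgd were named after their values were seen. Some genes that this rule names are not reported here. Replicate numbers were taken to pair samples where every one of 3 same-numbered pairs deviated together from its group means with a correlation over 0.1. This held in 4 of 16 comparisons of 2 groups, as seen in the data and not stated by the labels: Dex, LPS, and Dex on LPS in KO-labelled cells, and KO-labelled against WT in LPS + Dex. UTR sequences and positions are from GENCODE release M21 on GRCm38.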

Additional observations from a re-analysis of the deposited data

Results flagged for a closer look

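Slc11a1 responded to LPS in opposite directions in the genotype labels, with both WT LPS libraries below all WT vehicle libraries and all 3 KO-labelled LPS libraries above their vehicle libraries. The difference between the responses was 0.70 ± 0.20 on the log2(FPKM + 1) scale (limma unadjusted p = 0.0017, adjusted p = 0.71 over all genes), so it failed the correction.

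For Blvrb the 3 WT Dex libraries lay below the WT vehicle libraries and the 3 KO-labelled Dex libraries above theirs, but neither difference from vehicle passed the test (-0.50, limma adjusted p = 0.056, and 0.40, adjusted p = 0.14). The difference between the labels was 0.89 ± 0.28 (limma unadjusted p = 0.0034, adjusted p = 0.19), which also failed the correction. No group had more than 3 libraries, so single samples were not tested for standing apart from their group.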

How the results depend on the processing

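Of 207 values of the 9 genes, 53 were called, and 32 of these calls held under every setting and with every library left out (42 under the settings alone); no called value changed sign. Without a filter the number of members called was 3 in place of 5 for Dex in WT, 0 in place of 1 for DAMPs in KO-labelled cells and 2 in place of 4 for KO-labelled against WT in Dex. With libraries centred on one median it was 0 in place of 1 for DAMPs and 3 in place of 5 for DAMPs + Dex against DAMPs in KO-labelled cells. For KO-labelled against WT in DAMPs + Dex it was 0 in place of 1 with a pseudocount of 0.1 and with only the groups compared. The causes were not tested.

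With each library left out in turn, the members called ran from 3 to 6 for Dex in WT and 3 to 5 in KO-labelled cells, from 7 to 9 and 7 to 8 for LPS, from 0 to 2 and 1 to 2 for Dex on LPS, from 0 to 1 and 0 to 1 for DAMPs, and from 3 to 4 and 4 to 5 for Dex on DAMPs. Between the labels they ran from 0 to 4 in Dex, 0 to 1 in LPS and 0 to 2 in DAMPs + Dex. For the difference of the Dex response with and without LPS they ran from 2 to 4 in WT and stayed at 4 in KO-labelled cells.

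The replicate block changed no member's call in the 4 comparisons in which numbers paired. Elsewhere samples share only a number, and the block moved 3 values past the threshold: Ncoa4 for Dex on DAMPs in WT (adjusted p = 0.048; 5 members called in place of 4), Slc40a1 for Dex on DAMPs in KO-labelled cells (0.039; 6 in place of 5) and Ncoa4 for KO-labelled against WT in Dex (0.043; 5 in place of 4). Of 13 comparisons with 3 pairs, every sample correlated best with its own number in 2.

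Counts over all genes moved by more than 1.5 times between the labels and for DAMPs. With a library left out, DAMPs against vehicle ran from 26 to 372 genes in WT (228 with all) and from 267 to 453 in KO-labelled cells (469). Between the labels the counts ran from 28 to 58 in vehicle (49), from 9, without WT LPS replicate 3, to 130 in LPS (87), from 36, without KO-labelled LPS + Dex replicate 1, to 110 in LPS + Dex (76), from 25, without KO-labelled DAMPs replicate 2, to 55 in DAMPs (83) and from 49, without WT DAMPs + Dex replicate 2, to 97 in DAMPs + Dex (120). Without a filter 92 genes were called in vehicle, 450 in LPS and 146 in LPS + Dex, and 21, 118, 75, 2 and 9 for the 5 differences of response, each at 0 with the filter. Under other settings the difference of the Dex response gave 4 (centred) or 3 (only the groups compared) and that of the LPS response 5 (replicate block), or up to 13 with a library left out. With only the groups compared the counts were 19 in vehicle, 3 in LPS, 7 in LPS + Dex, 11 in DAMPs and 35 in DAMPs + Dex, and DAMPs against vehicle in WT gave 94 with only that genotype. The lowest levels, those of Slc40a1 with LPS, are limited by depth and by the pseudocount.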
